A study of Mus musculus with 4 samples.

Results

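The HoxB cluster is a run of 10 homeobox genes on mouse chromosome 11: Hoxb13, Hoxb9, Hoxb8, Hoxb7, Hoxb6, Hoxb5, Hoxb4, Hoxb3, Hoxb2 and Hoxb1, in that order from the centromere side, all on the plus strand. Its contacts were followed in Micro-C maps of mouse cells with and without the zinc finger protein PATZ1. Members were chosen by position. They are the pairs of 8 kb bins with one bin overlapping 96194000 to 96369000 of chromosome 11 (build GRCm38) and the other between 95500000 and 96820000. Only the upper limit drew on a measured value: bins beyond it were left out, since a block with fewer contacts in the PATZ1 KO libraries begins there. The rule takes in 23 bins of the cluster (96192001 to 96376000) and 164 partner bins, those of the cluster included. It found 1823 of the 23095428 listed pairs in embryonic stem cells (ESCs) and 1868 of the 21005697 in motor neurons (MNs). The 10 genes are among 21755 protein-coding genes of the annotation.

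Micro-C cuts cross-linked chromatin with micrococcal nuclease and ligates DNA ends that lie close in the nucleus, so that a joined pair of fragments counts as a contact. The 4 groups were ESCs and MNs, each as WT and as PATZ1 KO (KO in what follows). The ESCs were the E14 line (ES-E14TG2a), and the KO had been made in them with CRISPR/Cas9. MNs were differentiated from the same WT and KO ESCs through embryoid bodies with retinoic acid and smoothened agonist. The MN cultures are thus a model grown in a dish and not tissue. The paper describes a cervical protocol and a caudalised one with WNT3A and FGF added, and its Micro-C methods do not state which was used. Several Patz1 KO lines were made, and the methods do not state whether the Micro-C libraries came from 1 clone. Each group had 1 library. No difference below therefore has a replicate check, and no test across genes or bins was made. The 95% intervals are exact binomial intervals for differences and exact Poisson intervals for levels, and cover counting error only.

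Hox genes encode transcription factors that give cells their position along the head-to-tail axis, and within a cluster their order along the chromosome follows the order of their expression along the body. The genes at the Hoxb1 end act early and far forward, in the hindbrain, and those toward Hoxb9 act further back, while Hoxb13 lies apart from the rest and acts in the tail region. In ESCs Hox clusters are largely silenced by Polycomb complexes, and retinoic acid switches on the genes at the 3′ end first. CTCF, which halts cohesin on the chromosome, marks borders between active and silent Hox genes, and PATZ1 was studied as a further factor at such borders.

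Several sequences within the cluster place it for a reader. Its miRNA genes are Mir196a-1, between the intergenic gap and Hoxb9, and Mir10a, just before Hoxb4. Their mature 5p strands are printed from RefSeq (GRCm38.p6, plus strand), the former at chr11:96265187-96265208 and the latter at chr11:96317186-96317208, with the seed (bases 2 to 8) in capitals. The seeds differ.
mmu-miR-196a-5p: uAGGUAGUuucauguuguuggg
mmu-miR-10a-5p: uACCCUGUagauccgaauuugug

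The letters CNAGGNGGC, the core of the CTCF motif, were searched on both strands in every 8 kb bin. They occurred 33 times in the cluster, in 17 of its 23 bins, and 42.7% of all autosomal bins hold them. The last 2 bins of the gap before Hoxb9 held 4 matches, all on the minus strand. The Hoxb9 start bin and the bin after it held 2 on the plus and 3 on the minus strand. The Hoxb4 bin held 3, all on the plus strand. The 4 bins from Hoxb8 to Hoxb5 held 3 on each strand, and the 7 from Hoxb3 to Hoxb1 held 3 on the plus and 4 on the minus. The Hoxb9 bins and the gap bins beside them are shown because contacts across the cluster were lowest at the Hoxb9 bins. The Hoxb4 bin is shown because it belongs to the pair with the largest ESC difference. Examples outside coding genes in those bins are shown with 20 bases on either side, read 5′ to 3′ on the strand of the match, with the matched letters in capitals. The positions are those of the capitals. Matches of 9 letters are frequent, and none is shown here to be bound.
gap, chr11:96250477-96250485, minus strand, between genes: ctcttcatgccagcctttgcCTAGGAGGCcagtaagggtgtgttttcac
gap, chr11:96255927-96255935, minus strand, intron of the non-coding gene Gm53: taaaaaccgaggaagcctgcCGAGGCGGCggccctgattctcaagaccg
gap, chr11:96257255-96257263, minus strand, intron of Gm53: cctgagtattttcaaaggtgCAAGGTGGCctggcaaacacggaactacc
gap, chr11:96261753-96261761, minus strand, exon of Gm53: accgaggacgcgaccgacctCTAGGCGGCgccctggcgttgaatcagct
Hoxb9 start bin, chr11:96265875-96265883, minus strand, between genes: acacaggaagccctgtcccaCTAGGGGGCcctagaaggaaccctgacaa
next bin, chr11:96279296-96279304, plus strand, between genes: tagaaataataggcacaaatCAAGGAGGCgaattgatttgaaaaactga
Hoxb4 bin, chr11:96312176-96312184, plus strand, between genes: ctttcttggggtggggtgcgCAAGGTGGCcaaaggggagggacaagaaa
Hoxb4 bin, chr11:96314767-96314775, plus strand, between genes: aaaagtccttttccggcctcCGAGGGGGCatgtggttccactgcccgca
Hoxb4 bin, chr11:96317510-96317518, plus strand, between genes: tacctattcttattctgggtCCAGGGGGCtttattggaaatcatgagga

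The letters GGGAGGGG, a G-rich run of the kind that MAZ and PATZ1 bind, were found in 20 of the 23 bins, with 98 matches, against 54.7% of autosomal bins. The cluster is also richer in G and C, with a median of 49.3% per bin against 41.4% over all autosomal bins. Promoter sequences (250 bases before to 50 after the start) could be matched for Hoxb8, Hoxb4 and Hoxb1. None of these 3 windows held the CTCF core, which 8.38% of 32851 promoters do, and the Hoxb4 window alone held the G-rich letters, once, against 12.19% of promoters.

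Before any result, what the lists can and cannot show is given. The lists hold 170946673 contacts of WT ESCs, 160496081 of KO ESCs, 110991835 of WT MNs and 118032533 of KO MNs. No column of the lists names its library, so every direction of KO over WT rests on reading the first contact column as WT and the second as KO, after the order of genotypes in the comparison's name. The targeted gene itself gave these values: the bin with the start of Patz1 held 158 contacts within it in WT ESCs and 116 in KO ESCs, and 117 in WT MNs and 65 in KO MNs. A pair is listed only where both libraries of a cell state have a contact. The WT MN library differed from the other MN library with GC content. At the median GC of the cluster's bins, a fit over all autosomal bins gave a log2 KO over WT of -0.37 in MNs and 0.01 in ESCs, and a log2 MN over ESC of 0.40 between the WT libraries and 0.01 between the KO libraries. Values that use WT MNs are to be read against these figures.

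Contact is given as a level, the contacts observed over the autosomal mean at the same distance in the same library, so that 1 is the average for that distance. Pairs of bins less than 16 kb apart were left out. The cluster was divided by start sites into the Hoxb13 bin, the gap of 8 bins between Hoxb13 and Hoxb9, the Hoxb5 to Hoxb9 block of 6 bins (96264001 to 96312000) and the Hoxb1 to Hoxb4 block of 8 bins (96312001 to 96376000). The flank on the Hoxb13 side had 86 bins and the flank on the Hoxb1 side 55. In the annotation Hoxb13 runs from 96194316 to 96197447, and Hoxb9 from 96271457 to 96276595. Hoxb8 runs from 96281905 to 96285315, Hoxb7 from 96286623 to 96290162, Hoxb6 from 96292476 to 96301569 and Hoxb5 from 96303336 to 96306121. Hoxb4 runs from 96318267 to 96321638, Hoxb3 from 96323326 to 96347930, Hoxb2 from 96350525 to 96354012 and Hoxb1 from 96365752 to 96368256. All positions are on chromosome 11 of GRCm38.

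The cluster did not form a single unit, and the lowest contact across it lay at Hoxb9 in all 4 libraries. Hoxb9 is the last gene before the long gap to Hoxb13. On the Hoxb1 side of this point, the level between the Hoxb1 to Hoxb4 and the Hoxb5 to Hoxb9 blocks was above the average, at 1.37 in WT ESCs, 1.52 in KO ESCs, 1.33 in WT MNs and 1.20 in KO MNs. Within the Hoxb1 to Hoxb4 block it was 1.10, 1.15, 1.04 and 1.03 in the same order, and within the Hoxb5 to Hoxb9 block 0.858, 0.807, 1.04 and 0.714, so the latter block was under the average in 3 of the 4 libraries. Across the point the levels were well under the average. Between Hoxb5 to Hoxb9 and the gap they were 0.510, 0.521, 0.516 and 0.450 in the same order. Between Hoxb1 to Hoxb4 and the gap they were 0.490 and 0.467 in the ESC libraries and 0.285 and 0.265 in the MN libraries, so both MN libraries were under both ESC libraries. The log2 MN over ESC there was -0.78 (-1.27 to -0.32) in WT and -0.82 (-1.33 to -0.33) in KO.

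The same point was found from the insulation score, the log2 of the mean contact in a 200 kb square spanning a bin over the mean of chromosome 11, in which a low value marks a border. In ESCs the lowest bin of the cluster was 96264001 to 96272000, which holds Mir196a-1 and the start of Hoxb9, at -0.79 in WT (1054 contacts) and -0.73 in KO (970 contacts). In WT MNs that bin and the next, 96272001 to 96280000, which holds the rest of Hoxb9, were equally low, and in KO MNs the next bin was lowest. Its score was -1.11 in WT (556 contacts) and -1.13 in KO (494 contacts). Between genotypes these scores differed, KO minus WT, by 0.05 in ESCs (-0.07 to 0.18) and by -0.02 in MNs (-0.20 to 0.16). Of all autosomal bins, 8.26%, 10.6%, 5.42% and 5.32% scored lower than these bins in WT ESCs, KO ESCs, WT MNs and KO MNs.

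**Figure D1:**
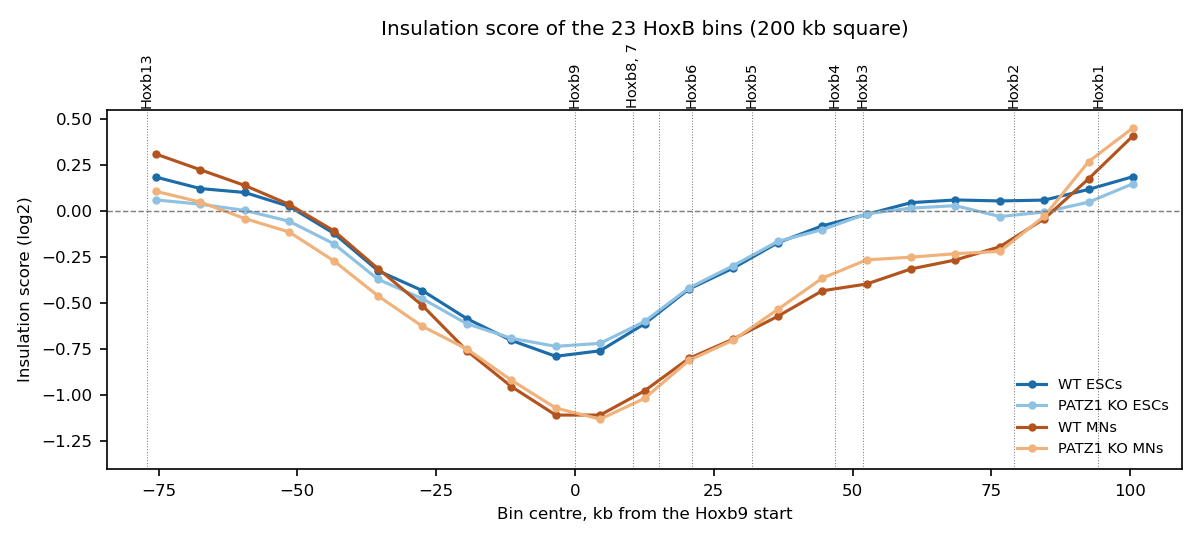
Insulation score (log2, 200 kb square over the chromosome mean) by distance from the start of Hoxb9 in kb, with a line for each of the 4 libraries. All lines reach their lowest value within the cluster at Hoxb9, and the MN lines run lower there (-1.11 and -1.13) than the ESC lines (-0.79 and -0.73).

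Each gene's start-site bin was then used as a viewpoint, with the bins 16 to 440 kb away on both sides as partners. Hoxb8 and Hoxb7, which both act in the trunk, share a bin and so have the same values. In WT ESCs their bin turned most to one side, with a level of 0.428 with partners on the Hoxb13 side and 1.69 with partners on the Hoxb1 side. In WT MNs the same bin was at 0.584 and 1.97, and Hoxb5 at 0.592 and 2.32, Hoxb1 at 0.636 and 2.46 and Hoxb6 at 0.510 and 1.86 were further apart. Hoxb6, Hoxb5, Hoxb4 and Hoxb3, in that order along the chromosome, were also higher toward the Hoxb1 side in all 4 libraries, at 1.50, 1.66, 1.28 and 1.36 against 0.511, 0.603, 0.745 and 0.667 in WT ESCs. Hoxb13 ran the other way in all 4 libraries, at 0.939, 0.849, 1.32 and 1.10 toward its own side and 0.649, 0.793, 0.762 and 0.660 toward the Hoxb1 side. In KO ESCs its intervals for the sides overlapped (0.73 to 0.99 and 0.67 to 0.93). Hoxb2 was slightly higher toward the Hoxb13 side in ESCs, at 0.976 against 0.879 in WT and 1.28 against 1.08 in KO, with overlapping intervals. In MNs it was higher toward the Hoxb1 side, at 1.73 against 0.880 in WT and 1.93 against 0.904 in KO. Hoxb9, at the border, was near balance, at 0.778 and 0.796 in WT ESCs. Over both sides together the genes were in no firm order. In WT ESCs the levels ran from 0.787 for Hoxb9 and 0.794 for Hoxb13 to 1.13 for Hoxb5, and in WT MNs from 1.04 for Hoxb13 to 1.55 for Hoxb1. Genes next to each other when ranked by level had overlapping intervals.

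**Figure D2:**
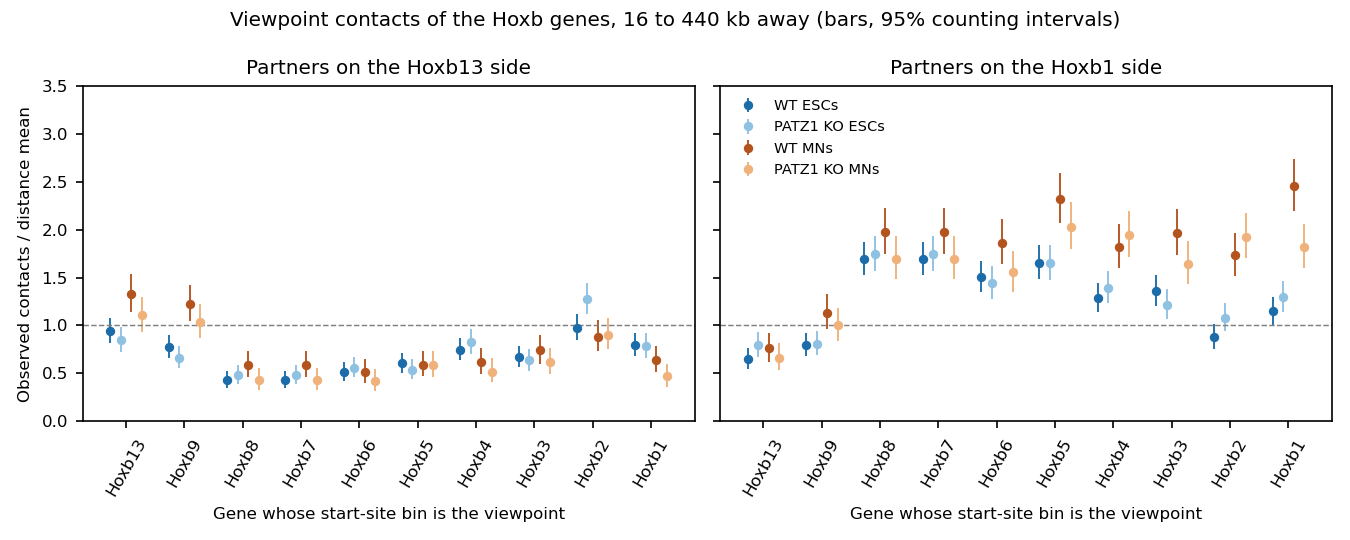
Viewpoint level of the start-site bin of each Hoxb gene with bins 16 to 440 kb away (1 is the autosomal mean at the same distance). Partners on the Hoxb13 side and on the Hoxb1 side have separate panels, with a point for each of the 4 libraries and bars for the exact 95% interval of counting error. Toward the Hoxb1 side all 10 genes are higher in WT MNs than in WT ESCs, as Hoxb1 with 2.46 against 1.15. Toward the Hoxb13 side several are lower, as Hoxb1 with 0.636 against 0.792, but the interval of each such log2 difference holds 0 (Hoxb1, -0.71 to 0.07). On that side only Hoxb9, at 0.65 (0.33 to 0.97), and Hoxb13, at 0.50 (0.20 to 0.79), have intervals clear of 0, both higher in WT MNs. Over both sides together all 10 are higher in WT MNs, but 6 of them turn after a fit on GC content. In WT ESCs the bars of Hoxb9 and Hoxb8 do not overlap in either panel.

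Of the cluster's contacts with its flanks, each taken as a whole, those on the Hoxb1 side differed more between the cell states. That flank holds Skap1, which encodes an adaptor protein of T cells, Snx11, a sorting nexin of endosomes, and Cbx1, which encodes the heterochromatin protein HP1 beta. The whole cluster's level with this flank was 1.12 in WT ESCs (3331 contacts), 1.08 in KO ESCs (2948), 2.19 in WT MNs (3909) and 1.97 in KO MNs (3501). The MN libraries were thus both well above the ESC libraries. The log2 MN over ESC was 0.97 (0.91 to 1.04) in WT and 0.87 (0.80 to 0.94) in KO. The same measure was taken over 12744 and 12742 tiles of the same shape along the autosomes, whose 5th to 95th percentiles were -0.72 to 0.67 in WT and -0.61 to 0.55 in KO. HoxB lay above 99.2% and 99.1% of them. A fit on GC over the tiles gave 0.34 in WT and 0.08 in KO at the GC of HoxB, less than the measured values. Restricted to pairs listed in both cell states, the values were 0.71 and 0.60.

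The difference was largest in the far part of this flank. The values by distance are of all pairs listed in each cell state, and are not restricted to pairs listed in both. Within 80 kb of the cluster edge the levels were 0.975, 0.923, 1.05 and 0.970 in WT ESCs, KO ESCs, WT MNs and KO MNs. From 80 to 160 kb they were 0.935, 0.855, 1.28 and 1.12, a log2 MN over ESC of 0.45 (0.28 to 0.62) in WT and 0.39 (0.20 to 0.57) in KO. Near the edge the blocks went opposite ways. Within 80 kb the Hoxb1 to Hoxb4 block was at 0.34 (0.17 to 0.52) in WT and 0.17 (-0.01 to 0.36) in KO, and the Hoxb5 to Hoxb9 block at -0.42 (-0.69 to -0.15) and -0.31 (-0.61 to -0.02). From 80 to 160 kb the former was at 0.83 (0.60 to 1.06) and 0.71 (0.46 to 0.96) and the latter at -0.44 (-0.80 to -0.08) and -0.30 (-0.67 to 0.07). Beyond 160 kb both blocks were higher in MNs in both genotypes. For the whole cluster, from 160 to 240 kb they were 1.53, 1.62, 3.76 and 3.47, and from 240 to 320 kb 1.43, 1.35, 4.34 and 3.90. In blocks of 40 kb the step in MNs lay between 96464001 to 96504000, at 1.06 in WT and 1.03 in KO, and 96544001 to 96584000, at 3.90 and 3.84, both inside Skap1. The highest block in MNs was 96664001 to 96704000, also in Skap1, at 4.50 and 4.08 against 1.49 and 1.41 in ESCs.

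**Figure D3:**
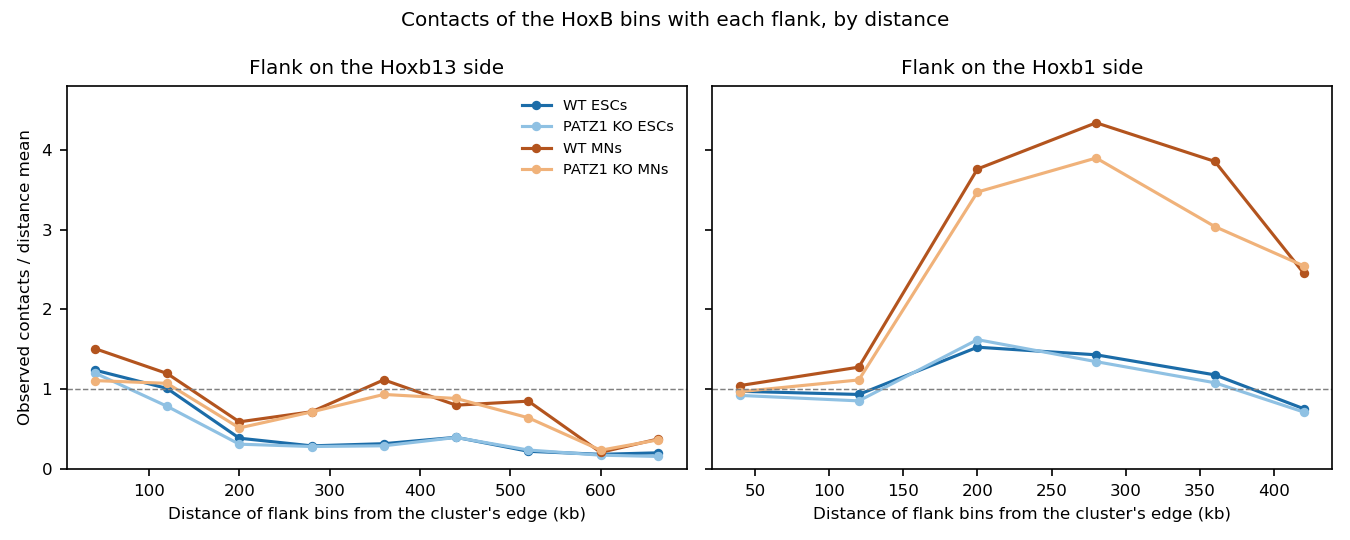
Contact level of the HoxB cluster with its flanks by distance of the partner bin from the cluster edge in kb, for the 4 libraries, the Hoxb13 side and the Hoxb1 side apart. On the Hoxb1 side the MN libraries are above the ESC libraries from 80 to 160 kb (1.28 and 1.12 against 0.935 and 0.855) and far above them from 160 to 240 kb (3.76 and 3.47 against 1.53 and 1.62), while within 80 kb they lie close for the cluster as a whole.

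Each gene was therefore set against the 35 bins from 96536001 to 96816000, a stretch chosen after these values were seen. The whole cluster had 1603 contacts with it in WT ESCs, 1484 in KO ESCs, 2691 in WT MNs and 2404 in KO MNs, which are levels of 1.35, 1.34, 3.82 and 3.40. Since the stretch was picked for its high MN contacts, the values of the genes with it are a description. Hoxb5 had the highest level in MNs, 5.91 in WT and 4.97 in KO, against 1.97 and 1.96 in ESCs. The Hoxb7 and Hoxb8 bin came next in WT MNs at 5.58, with 4.66 in KO MNs, 2.37 in WT ESCs and 2.10 in KO ESCs. Hoxb2, a hindbrain gene, went from 1.02 in WT ESCs to 3.75 in WT MNs, a log2 difference of 1.89 (1.45 to 2.33), and from 1.36 to 4.25 in the KO libraries. Hoxb13 stayed lowest in every library, at 0.516, 0.488, 1.77 and 1.49, from 19, 17, 41 and 35 contacts. Contacts of the far bins with each other had a log2 MN over ESC of 0.54 in WT and 0.46 in KO. Their contacts with the cluster had 1.50 (1.41 to 1.59) and 1.35 (1.25 to 1.44). The stretch was picked on the latter contacts, and the pairs span different distances, so setting these values side by side is no test. Contacts within a single bin of the stretch differed by 0.15 and -0.16.

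The flank on the Hoxb13 side, taken whole, had a log2 MN over ESC of 0.49 (0.41 to 0.57) in WT and 0.36 (0.27 to 0.45) in KO, above 87.8% and 86.0% of tiles of its shape. The fit on GC over the tiles gave 0.50 in WT, about the measured value, and 0.18 in KO. Restricted to pairs listed in both cell states, the values were 0.26 (0.17 to 0.35) in WT and 0.09 (-0.02 to 0.19) in KO, so the KO interval then held 0. Distance mattered here too, in values without that restriction. Within 80 kb of Hoxb13 the values were 0.28 (0.17 to 0.40) in WT and -0.12 (-0.25 to 0.01) in KO, and from 320 to 400 kb 1.81 (1.43 to 2.21) and 1.68 (1.27 to 2.11). The levels at that distance were 0.318 and 0.292 in ESCs and 1.12 and 0.935 in MNs, from 83, 72, 181 and 153 contacts, so the ESC libraries were far under the average and the MN libraries near it. From 480 to 560 kb the log2 differences were 1.93 (1.35 to 2.55) in WT and 1.43 (0.82 to 2.06) in KO, from 34, 35, 92 and 71 contacts. The rise was not steady with distance. From 400 to 480 kb the differences were 1.01 (0.57 to 1.45) and 1.16 (0.73 to 1.60). From 560 to 640 kb they were 0.18 (-0.78 to 1.14) and 0.44 (-0.50 to 1.39), with intervals that hold 0.

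By block, the cluster's contacts with the whole Hoxb13-side flank went different ways. The gap was higher with that flank in MNs, at 1.13, 0.974, 1.75 and 1.39 in the order given above, and so was the Hoxb5 to Hoxb9 block, at 0.458, 0.438, 0.650 and 0.606. The Hoxb1 to Hoxb4 block was lower, at 0.364 and 0.387 in ESCs and 0.209 and 0.208 in MNs. Its log2 MN over ESC was -0.80 (-1.12 to -0.48) in WT and -0.89 (-1.22 to -0.58) in KO. Within 80 kb the values were -1.26 (-1.76 to -0.79) and -1.30 (-1.79 to -0.84), and from 80 to 160 kb -0.09 (-0.85 to 0.64) and -0.13 (-0.91 to 0.63). Further out the contacts were few and every interval held 0, with values of either sign, such as -1.49 in WT and -1.80 in KO from 400 to 480 kb, where 12 and 14 contacts in ESCs stood against 3 in each MN library. Hoxb13 itself had 40 contacts with the Hoxb1 to Hoxb9 stretch in WT ESCs, 53 in KO ESCs, 13 in WT MNs and 11 in KO MNs, a log2 MN over ESC of -0.88 (-1.91 to 0.05) in WT and -1.66 (-2.75 to -0.71) in KO. Inside the cluster as a whole, the level was 0.870 in WT ESCs, 0.905 in KO ESCs, 0.890 in WT MNs and 0.768 in KO MNs.

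Counted by bin, 8 of the 23 cluster bins were higher by at least 0.5 on the log2 scale in WT MNs than in WT ESCs and none was lower, with a median of 0.45. Over all autosomal bins 8.56% were past this fold upward and 10.1% downward. Between the KO libraries 2 of 23 were higher and none lower, with a median of 0.26, and the autosomal shares were 3.25% and 3.53%. The start-site bins of all 10 genes were higher in WT MNs, by 0.24 for Hoxb6 to 0.67 for Hoxb1, but after the fit on GC the values of Hoxb4, Hoxb5, Hoxb6, the Hoxb7 and Hoxb8 bin and Hoxb13 turned to between -0.29 and -0.07. Between the KO libraries the genes ran from -0.06 for the Hoxb7 and Hoxb8 bin to 0.47 for Hoxb9. The fit on GC was chosen after the values were seen. After it, none of the 23 bins was higher by at least 0.5 in WT, and 2 were in KO. The autosomal shares above are for values without the fit.

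The Micro-C maps were made to ask whether loss of PATZ1 alters genome organization at large, and the values of HoxB are given here. In ESCs the cluster's contacts taken as a whole differed little between WT and KO. Within the cluster the log2 KO over WT was 0.06 (-0.04 to 0.15; 1960 contacts in WT, 1817 in KO). With the flank on the Hoxb1 side it was -0.05 (-0.13 to 0.02). By block, Hoxb5 to Hoxb9 was at -0.18 (-0.30 to -0.06; 1290 and 1050 contacts) with this flank, and Hoxb1 to Hoxb4 at 0.04 (-0.07 to 0.14). For the whole cluster with the flank on the Hoxb13 side, the log2 KO over WT was -0.16 (-0.24 to -0.07; 2593 and 2151 contacts). This is above only 6.39% of tiles of that shape. With the authors' adjusted signal it was -0.09. The largest block value was that of Hoxb13 with the Hoxb1 to Hoxb9 stretch, 0.55 (-0.07 to 1.18; 40 and 53 contacts), and Hoxb13 with the gap was at 0.36 (-0.12 to 0.83), with intervals that hold 0. With the Hoxb13-side flank, partners 80 to 160 kb from the edge were at -0.36 (-0.53 to -0.19), and the gap's contacts with the whole flank at -0.22 (-0.32 to -0.12). The window's bins outside the cluster had a median of -0.14 as viewpoints. Those in the Hoxb1-side flank reach partners past the upper limit, in the block with fewer KO contacts, so this median does not describe the window alone.

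Of the 23 bins in ESCs, 1 was higher by at least 0.25 and 0 were lower, with a median of -0.06. Over all autosomal bins the shares were 3.36% higher and 4.66% lower. The bin past the fold holds the start of Hoxb2. It had 403 contacts in WT ESCs and 463 in KO ESCs, at levels of 0.927 and 1.18, a log2 difference of 0.34 (0.15 to 0.54). Partners on both sides were higher, by 0.39 (0.12 to 0.66) toward Hoxb13 and by 0.29 (0.01 to 0.58) toward Hoxb1. Taken over all bins of the gene rather than the start bin, the difference was 0.14. In MNs the same bin had 353 contacts in WT and 382 in KO, a difference of 0.12 (-0.10 to 0.33). Of the other genes in ESCs, the differences ran from -0.13 for Hoxb3 to 0.13 for Hoxb4, and every interval held 0. Over all bins of the gene Hoxb3 was at 0.11 (0.01 to 0.21), so its direction turned. No cluster bin changed in insulation by 0.25 or more in ESCs, where 0.589% of autosomal bins were higher and 1.47% lower.

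In MNs the cluster was lower in KO than in WT by most measures, while as a whole it was no lower than the fit on GC content. Within the cluster the log2 KO over WT was -0.21 (-0.33 to -0.10; 1316 contacts in WT, 1136 in KO), where tiles of the same shape ran from -0.48 to 0.52 and the fit on GC gave -0.53. It was -0.28 (-0.37 to -0.19) with the flank on the Hoxb13 side and -0.16 (-0.22 to -0.09) with the flank on the Hoxb1 side. With the mean of chromosome 11 alone as the reference, these 3 values were -0.03, -0.16 and -0.03, and with the authors' distance-adjusted signal -0.01, -0.14 and -0.05. By block, contacts within Hoxb5 to Hoxb9 were at -0.54 (-0.93 to -0.15; 139 and 96 contacts) and within the gap at -0.36 (-0.64 to -0.09). Within Hoxb1 to Hoxb4 they were at -0.02 (-0.28 to 0.24). With the mean of chromosome 11 alone the first 2 were at -0.35 (-0.74 to 0.04) and -0.17 (-0.45 to 0.10), with intervals that hold 0. With 1 library of each kind, the GC difference of the WT MN library and the genotype cannot be told apart.

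By bin, 13 of 23 were lower by at least 0.25 in KO MNs and 0 were higher, with a median of -0.26. Among all autosomal bins 21.2% were lower and 23.2% higher, so folds of this size were frequent between the MN libraries. Relative to the window's bins outside the cluster, whose median was -0.34, 0 of 23 were lower and 5 higher. Viewpoints in the Hoxb1-side flank reach partners past the upper limit, in the block with fewer KO contacts, so that median is not free of it. After the fit on GC the counts were also 0 and 5. Hoxb1, a rhombomere gene that retinoic acid induces early, was the lowest of the genes: its 418 contacts in WT MNs were 308 in KO MNs, at levels of 1.55 and 1.14, a difference of -0.44 (-0.65 to -0.22). It was -0.16 after the fit on GC. Hoxb3, Hoxb6 and the Hoxb7 and Hoxb8 bin were at -0.26, -0.26 and -0.27 with intervals under 0, and at 0.08, 0.11 and 0.23 after the fit on GC, so their direction turned. Hoxb4 and Hoxb2 were at 0.02 and 0.12 with intervals that hold 0, and at 0.44 and 0.54 after the fit on GC. With the mean of chromosome 11 alone Hoxb2 was at 0.27 (0.06 to 0.49). No cluster bin changed in insulation by 0.25 or more in MNs, where 19.6% of autosomal bins were higher and 13.8% lower. That count depended on the setting: 6 bins were lower with only pairs of at least 3 contacts in each library, and 5 with a square of 80 kb, under which the lowest bin was at -0.23. The autosomal shares given here are for the main setting only, without the fit on GC or the window as reference. Counts under other settings therefore have no share to be read against.

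**Figure D4:**
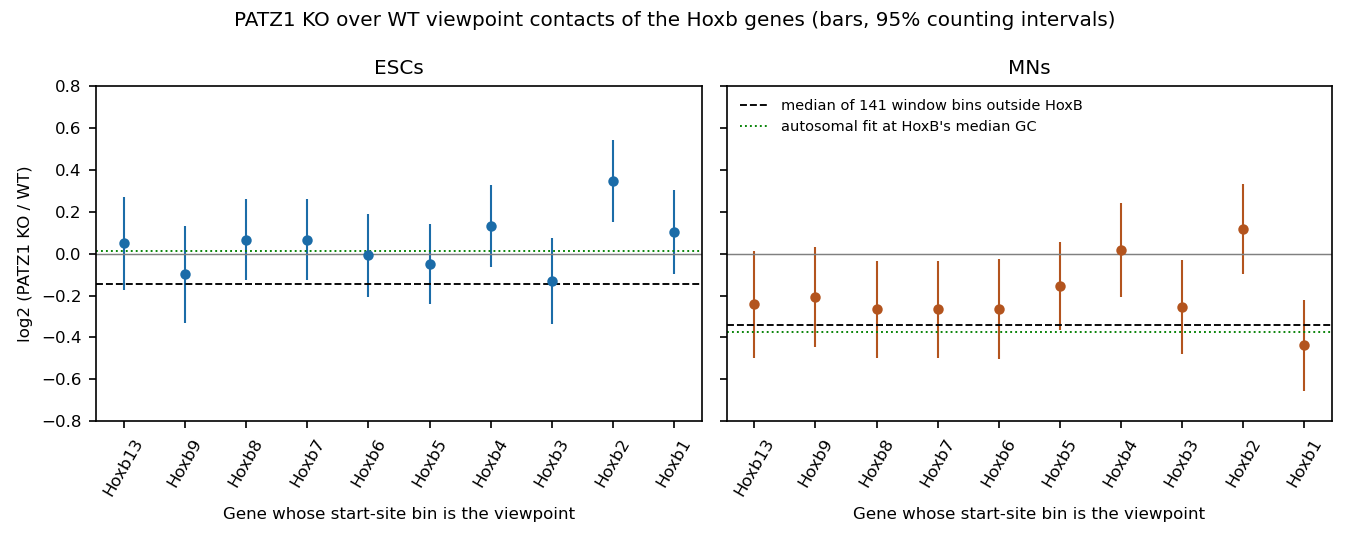
Log2 of the viewpoint level in KO over WT for each Hoxb gene, in ESCs and in MNs, with exact 95% intervals of counting error. In ESCs only the Hoxb2 interval lies clear of 0 (0.34), and in MNs Hoxb1 is lowest (-0.44).

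Single pairs gave few contacts. Among pairs at least 40 kb apart, 4 had 20 or more contacts in each ESC library and none did in both MN libraries, which have fewer contacts in all. The strongest for its distance joined a bin of Ttll6, a tubulin polyglutamylase gene on the Hoxb13 side, with the gap at 96232001, 88 kb away. It had 24 contacts in WT ESCs, 25 in KO ESCs, 10 in WT MNs and 11 in KO MNs, at levels of 4.43, 5.14, 2.99 and 3.30. The others were within the Hoxb1 to Hoxb9 stretch. The bin of Hoxb8 and Hoxb7 and the bin at 96344001, which holds the start of Hoxb2 and the end of Hoxb3, 64 kb apart, had 23, 26, 7 and 5 contacts. The bin at 96296001, of Hoxb6 and Hoxb5, had 23, 21, 14 and 11 with the bin at 96344001 and 25, 24, 7 and 11 with the bin of Hoxb3 at 96336001. In each of these 4 pairs the WT and KO ESC counts differed by 3 or fewer.

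Of all pairs with at least 20 contacts in each library, 26 in ESCs had a median log2 KO over WT of 0.04 with 15 higher. In MNs 8 had a median of -0.30 with 1 higher, where the fit on GC for the cluster's bins was -0.37. The median of the window's bins outside the cluster was -0.34, with partners past the upper limit included. The largest ESC difference was within the Hoxb1 to Hoxb4 block: the Hoxb4 bin and the Hoxb3 bin 16 kb away had 24 contacts in WT ESCs and 38 in KO ESCs, a difference of 0.83 (0.06 to 1.63). In MNs the same pair had 18 and 33. The Hoxb4 bin and the Hoxb3 bin 24 kb away had 22 and 29 in ESCs and 18 and 25 in MNs, so both pairs were higher in KO in both cell states. Both were chosen as the largest of many on their ESC values. The largest ESC fall, 40 to 27 contacts between the Hoxb8 and Hoxb7 bin and the Hoxb6 and Hoxb5 bin, had an interval that held 0 (-1.16 to 0.34), and so had the largest MN fall, 35 to 21 between the last bin of the cluster and the flank 16 kb away (-1.60 to 0.07).

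The protein-coding neighbours were compared as partners of the whole cluster. On the Hoxb1 side all 3, Skap1, Snx11 and Cbx1, were higher in MNs, by 1.27 to 2.16 in WT and by 1.14 to 1.90 in KO. On the Hoxb13 side 13 of 16 were higher in WT MNs than in WT ESCs and 14 of 16 in the KO libraries, with an interval above 0 for 9 in each and a range of -0.89 to 2.87 in WT. For tiles like the whole flank on that side, the fit on GC gave a log2 MN over ESC of 0.50 in WT and 0.18 in KO. Several of the 16 genes overlap or share bins, among them Zfp652, Phospho1, Abi3 and Gngt2, so they are not separate observations. No share over other genes was computed for these counts or for those of KO over WT below. Phb, which encodes the mitochondrial protein prohibitin, had 11 contacts in each ESC library, 43 in WT MNs and 29 in KO MNs, at 2.47 (1.49 to 3.57) and 1.81 (0.77 to 2.96). Phospho1, a phosphatase gene of mineralising bone, was at 2.27 (1.40 to 3.22) and 1.81 (0.90 to 2.79). In ESCs 12 of the 16 were lower in KO, 2 of them with an interval under 0. These were Atp5g1, a subunit gene of ATP synthase, with 109 contacts in WT and 63 in KO (-0.66, -1.14 to -0.20), and Ube2z, a ubiquitin-conjugating enzyme gene, with 217 and 139 (-0.52, -0.84 to -0.21). In MNs 13 of 16 were lower and Ttll6 had an interval under 0, at -0.42 (-0.62 to -0.23), where the fit on GC gave -0.34 for tiles like the whole flank on that side.

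HoxB differed from the other Hox clusters in how little its inner contacts moved in ESCs, as values side by side without a test. The log2 KO over WT within the cluster was 0.06 for HoxB and 0.09 for Hoxb1 to Hoxb9 alone, which is nearer in length to the others. It was 0.29 (0.20 to 0.39) for HoxA, 0.34 (0.20 to 0.47) for HoxD and -0.24 (-0.35 to -0.13) for HoxC. For HoxB it was -0.02 (-0.11 to 0.07) scaled to library totals and 0.09 (0.002 to 0.19) with the authors' adjusted signal. The latter interval is approximate, since that signal is not a count. The other clusters are given under the main setting only. In MNs all 4 clusters were lower in KO, HoxB at -0.21, HoxA at -0.15, HoxD at -0.22 and HoxC at -0.49, and all have a median GC between 48.8% and 50.6%. Between cell states in the KO libraries, HoxB was at -0.24, HoxC at -0.20, HoxA at -0.68 and HoxD at -0.83. In the WT libraries the values were 0.03, 0.04, -0.23 and -0.28 in the same order.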

How the data were processed

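Micro-C libraries, 1 per group, came from Dovetail's kit, and the company carried out mapping, matrix building and HiCcompare on the authors' behalf. The aligner version is not given in the sources used here. Each of the 2 deposited lists holds pairs of 8 kb bins for WT against PATZ1 KO in 1 cell state. The authors' interaction frequencies are raw counts of contacts. Their adjusted interaction frequencies are a signal, jointly normalised against distance by the authors, and were used only as an alternative. Columns holding the authors' log2 ratios, scores and p-values were not used. The submitters' processing notes name build mm10; GRCm38 sequence and annotation were used.

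Counts were divided by the autosomal mean at the same distance in the same library (pairs from 16 kb). Differences have exact Clopper-Pearson 95% intervals and levels exact Poisson ones. Folds of 0.25 (KO over WT) and 0.5 (MNs over ESCs) were read against autosomal bins with at least 50 contacts in each library. Named were the 10 genes, the 5 strongest pairs from 40 kb with at least 20 contacts in each library, the 3 largest differences each way, the lowest insulation bin and its genes. Members, lists and settings were chosen with earlier results of these data known. Python 3.11.15, numpy 2.4.6, pandas 2.3.3, scipy 1.17.1 and matplotlib 3.10.9 were used, and scripts were tested on simulated data. Alternatives covered the reference, distances, minimum contacts, thinning, GC content, folds and square sizes.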

Additional observations from a re-analysis of the deposited data

How the results depend on the processing

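Contact numbers limit these results, since most single pairs held fewer than 20 contacts. No paired analysis was possible because each group had 1 library, and no replicate was left out for the same reason. Of the summary values recomputed, 202 stayed within their counting interval or within 1.5 times their count and 40 did not. The cause was not tested. Differences below are on the log2 scale and counts are of the 23 cluster bins past the fold. The autosomal shares given earlier are for the main setting, so the counts below have no share beside them.

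Scaled to library totals, the Hoxb1-side flank gave -0.25 for KO over WT in MNs, and 0.85 (WT) and 0.69 (KO) for MNs over ESCs; the Hoxb13-side flank gave 0.22 in KO. Bins higher in MNs numbered 5 in WT and 1 in KO, and 2 bins were lower in KO ESCs. With the mean of chromosome 11 alone, KO over WT in MNs was -0.029 within the cluster, -0.16 with the Hoxb13-side flank and -0.029 with the Hoxb1-side flank, and with the authors' adjusted signal -0.0060, -0.14 and -0.051. Under either setting 2 bins were lower and 1 higher. Contacts within the Hoxb1 to Hoxb4 block were at -0.31 in MNs with bins from 8 kb, and at -0.16 in ESCs with bins from 32 kb. With at least 3 contacts in each library, the Hoxb1-side flank was at -0.045 in MNs and 6 bins were lower in insulation, and with a square of 80 kb 5 were. In ESCs 1 bin was lower in KO with bins from 32 kb, with viewpoints up to 200 kb or after the fit on GC, 4 at a fold of 0.15, and 0 were higher at a fold of 0.5, at which 0 were lower in MNs. With only pairs listed in both cell states, MNs over ESCs was 0.26 (WT) and 0.090 (KO) for the Hoxb13-side flank and 0.71 and 0.60 for the Hoxb1-side flank, with 4 and 1 bins higher.

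Relative to the window outside the cluster, 3 bins were higher in KO ESCs, and in MNs 0 were lower and 5 higher. That reference takes in partners past the upper limit, where a block has fewer contacts in KO. Against it, Hoxb3, Hoxb6 and the Hoxb7 and Hoxb8 bin turned to 0.086, 0.079 and 0.075 in MNs. After the fit on GC they turned to 0.080, 0.11 and 0.23, again with 0 bins lower and 5 higher. The same fit for MNs over ESCs in WT, added after the values were seen, left 0 bins higher and turned Hoxb4 to -0.19, Hoxb5 to -0.18, Hoxb6 to -0.16, the Hoxb7 and Hoxb8 bin to -0.29 and Hoxb13 to -0.068.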
